A study of Mus musculus with 13 samples.

Results

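Fatty acid synthesis, desaturation and elongation are carried out by a small set of enzymes, and 10 genes of this set were followed here in LPS-activated bone marrow-derived macrophages (BMDMs): *Acaca*, *Fasn*, *Scd1*, *Scd2*, *Fads1*, *Fads2*, *Elovl1*, *Elovl5*, *Elovl6* and *Acsl3*. They were picked by symbol from a table of 24445 gene symbols. The choosing rule did not use their values, but the list was made with earlier results of these data known. Where a symbol had several transcripts the one with most counts stood for it. All 10 passed the filter on low counts, as did 11904 genes in total. In Acly-deficient BMDMs, *Fasn*, *Scd1*, *Scd2* and *Fads2* rose after 3 h LPS and fell after 24 h LPS relative to control, and for all 10 genes the genotype difference shifted downwards between the time points.

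The libraries came from BMDMs of female mice, grown from bone marrow and stimulated with LPS, a bacterial outer membrane component that activates macrophages. Control cells carried loxP-flanked (floxed) alleles of *Acly* (Acly fl/fl), and AclyM-KO cells carried the same alleles together with Lyz2-Cre, a Cre recombinase made under the promoter of the myeloid gene *Lyz2*. There were 3 libraries of control and 3 of AclyM-KO cells after 3 h LPS, and 4 of control and 3 of AclyM-KO cells after 24 h LPS. Every group was LPS-treated, and unstimulated cells were not analysed here. The labels give no age of the mice and do not say whether replicates were separate mice or separate wells, so the p-values measure the spread between these libraries, which may be technical. Because RNA was taken from whole cultures, fewer cells of a type and less RNA per cell cannot be told apart.

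Control 24 h replicate 1 held 34467 counts, whereas the other 12 libraries held 21274102 to 59577343 counts (median 22683294). It was left out of the values below, which leaves 3 libraries in each group. Levels are CPM, the counts of a gene as a share of all counts of the library on a fixed scale, normalized by TMM, a method that corrects library sizes for differences in composition. Differences were tested with edgeR's quasi-likelihood model, and a gene was called changed when its p-value, adjusted by Benjamini and Hochberg's method, was under 0.05 and its log2 fold change was beyond 0.75, and the difference between time points was called on the adjusted p-value alone. *Acly*, the targeted gene, had 105, 107 and 106 CPM in control and 37.7, 46.2 and 41.5 CPM in AclyM-KO BMDMs after 3 h LPS. After 24 h it had 113, 109 and 107 CPM in control and 30.1, 30.5 and 29.0 CPM in AclyM-KO BMDMs. The groups did not overlap at either time, with log2 fold changes of -1.34 (SE 0.06, adjusted p = 6.41e-16) and -1.88 (SE 0.06, adjusted p = 4.81e-20). The sum of 8 macrophage markers was 9979 to 10080 CPM in control and 6912 to 7848 CPM in AclyM-KO libraries after 3 h, and 6028 to 6330 CPM against 4521 to 4625 CPM after 24 h LPS. Without *Lyz2*, the gene from which Cre is driven, the other 7 markers summed to 4714 to 4858 CPM against 4640 to 4905 CPM and to 3633 to 3810 CPM against 3577 to 3765 CPM, so that these sums overlapped between genotypes at both times. Single markers differed within the fold threshold. *Mertk* was lower in AclyM-KO libraries without overlap at both times (log2 fold changes -0.31 and -0.33). After 3 h LPS *Fcgr1* (-0.26) and *Cd14* (-0.15) were lower and *Adgre1* (0.24) higher, without overlap. *Csf1r*, *Cd68* and *Itgam* had adjusted p-values over 0.05 at both times. The level of *Lyz2* itself was 5237 and 2666 CPM after 3 h and 2436 and 920 CPM after 24 h LPS in control and AclyM-KO BMDMs, and its part in the results was not tested. Markers of neutrophils summed to at most 15.3 CPM in any library, and those of dendritic, lymphoid, fibroblast, mast or basophil and erythroid cells to at most 2.69 CPM each.

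Acly cleaves cytosolic citrate to acetyl-CoA, the carbon source for fatty acid and sterol synthesis. Acetyl-CoA carboxylase (*Acaca*) turns acetyl-CoA into malonyl-CoA, and fatty acid synthase (*Fasn*) joins these units into palmitate. Stearoyl-CoA desaturases (*Scd1* and *Scd2*) place the first double bond into saturated chains, and the delta-5 and delta-6 desaturases (*Fads1* and *Fads2*) act on polyunsaturated chains. Elongases of the Elovl family add carbon units to chains of differing length and saturation, and *Acsl3* encodes an acyl-CoA synthetase that activates long-chain fatty acids. Transcription of many of these genes is classically driven by the sterol regulatory element-binding proteins, encoded by *Srebf1* and *Srebf2*, and by liver X receptors.

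The 10 genes were spread over 6 chromosomes of GRCm38, the assembly behind mm10, with 4 of them on chromosome 19. *Fasn* was located at chr11:120805846-120824547 (minus strand), *Acaca* at chr11:84129672-84401651 (plus), *Scd1* at chr19:44394455-44407879 (minus) and *Scd2* at chr19:44293674-44306864 (plus), 87.6 kb from *Scd1*. *Fads1* lay at chr19:10182888-10196877 (plus) and *Fads2* at chr19:10062765-10101746 (minus), 81.1 kb apart. The elongases lay at chr4:118428093-118432953 (*Elovl1*, plus), chr9:77917364-77984519 (*Elovl5*, plus) and chr3:129532355-129638495 (*Elovl6*, plus), and *Acsl3* at chr1:78657825-78707743 (plus). Genes annotated within or across a member on the same strand were *Gm37391* for *Acaca*, *Mir5114* for *Scd2*, *Mir6993* for *Fads1*, *Gm43072* for *Elovl6* and *Utp14b* for *Acsl3*. On the opposite strand, *Gm11437* overlapped *Acaca*, *Cdc20* overlapped *Elovl1* by 53 bases and *Gm35986* overlapped *Elovl6* by 34 bases. The strand setting of the counting is not given in the sources used here, so reads of such neighbours could be shared. Of the 4783 stretches of 50 bases in the *Scd1* transcript, 145 were also present in *Scd2*, and no other pair of the 10 transcripts shared any.

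Because the 10 genes shifted in one direction between the time points, their promoters were searched for motifs of lipid gene promoters. RefSeq-based promoter sequences of GRCm38.p6 were at hand for 7 of the 10 genes (*Acaca*, *Fasn*, *Fads2*, *Elovl1*, *Elovl5*, *Elovl6* and *Acsl3*), in 8 windows of the 250 bases before a transcript start, with *Elovl1* contributing a pair. The *Acaca* window and the downstream window of *Elovl1* stand before internal starts, within the annotated gene. The *Fads2* window likewise lies mostly within its annotated gene. The *Elovl6* window overlaps the first bases of its gene, and that of *Elovl5* the first base. Among the genes with a window, *Fasn* and *Acsl3* were changed after 3 h LPS and *Elovl5* had the smallest difference at that time. Their windows are shown 5′ to 3′ on the strand of the gene, ending at the base before the start, with matches to the motifs in capitals.
*Fasn*, chr11:120824548-120824797, minus strand: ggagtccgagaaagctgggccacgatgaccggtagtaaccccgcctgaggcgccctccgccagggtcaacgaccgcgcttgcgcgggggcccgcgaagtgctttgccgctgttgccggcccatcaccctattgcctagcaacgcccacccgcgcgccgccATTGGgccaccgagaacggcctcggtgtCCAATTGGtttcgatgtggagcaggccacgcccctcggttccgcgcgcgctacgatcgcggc
*Acsl3*, chr1:78657575-78657824, plus strand: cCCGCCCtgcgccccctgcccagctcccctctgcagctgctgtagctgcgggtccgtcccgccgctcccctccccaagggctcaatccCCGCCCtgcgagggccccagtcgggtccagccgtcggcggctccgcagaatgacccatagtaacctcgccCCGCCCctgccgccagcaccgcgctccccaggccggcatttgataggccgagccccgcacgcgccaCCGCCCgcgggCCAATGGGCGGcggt
*Elovl5*, chr9:77917115-77917364, plus strand: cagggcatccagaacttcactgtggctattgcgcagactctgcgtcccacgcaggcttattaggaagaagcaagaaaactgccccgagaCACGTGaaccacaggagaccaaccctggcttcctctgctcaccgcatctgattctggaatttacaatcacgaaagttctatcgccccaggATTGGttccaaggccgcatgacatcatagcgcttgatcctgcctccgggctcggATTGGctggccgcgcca

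Both strands were searched for 4 motifs. The core of the sterol regulatory element, with the letters TCACNCCAC, was matched in 0 of the 8 windows and in 1.05% of all 32851 windows in the RefSeq table. The CCAAT box was matched in 4 of the 8 windows (*Fasn*, *Elovl1*, *Elovl5* and *Acsl3*) and in 33.8% of all windows. In *Fasn* its matches began 90, 62 and 59 bases before the start, and the last pair overlapped on opposite strands. The GC box, spelled GGGCGG, was matched in 4 of the 8 windows (*Fads2*, *Acsl3* and both of *Elovl1*) and in 32.7% of all windows. The last such match in *Acsl3* directly followed the CCAAT box, and another in *Elovl1* overlapped it. The E-box CACGTG was matched in 1 of the 8 windows, that of *Elovl5*, and in 6.02% of all windows. A match is a description of the letters in these windows only.

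After 3 h LPS, all 10 genes had higher mean levels in AclyM-KO than in control BMDMs, and *Fasn*, *Scd1*, *Scd2*, *Fads2* and *Acsl3* rose past both thresholds. That is 5 of 10, where 1.41% of all genes tested were called higher. By the adjusted p-value alone 9 of 10 were higher, all but *Elovl6*, where 8.50% of all genes were. The median log2 fold change of the 10 genes was 0.64 (range 0.23 to 2.34), and that of all genes tested was -0.005. For 10 of 10 genes every AclyM-KO library lay above every control library, a pattern found in 15.3% of all genes.

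After 24 h LPS, all 10 genes had lower mean levels in AclyM-KO than in control BMDMs, and *Fasn*, *Scd1*, *Scd2* and *Fads2* fell past both thresholds. That is 4 of 10, where 0.479% of all genes tested were called lower. By the adjusted p-value alone 9 of 10 were lower, all but *Elovl1*, where 5.57% of all genes were. The median log2 fold change of the 10 genes was -0.71 (range -1.24 to -0.11), and that of all genes was 0.006. For 10 of 10 genes every AclyM-KO library lay below each of the 3 control libraries, which was the case in 14.9% of all genes.

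The difference between these genotype effects, 24 h minus 3 h, passed edgeR's interaction test for 10 of 10 genes, all towards lower levels after 24 h, where 4.66% of all genes tested did so in that direction. Its median was -1.26 on the log2 scale (range -3.58 to -0.38) against 0.015 for all genes. It was largest in size for *Fads2*, *Scd1* and *Fasn*, and smallest for *Elovl1* and *Elovl5*.

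**Figure D1:**
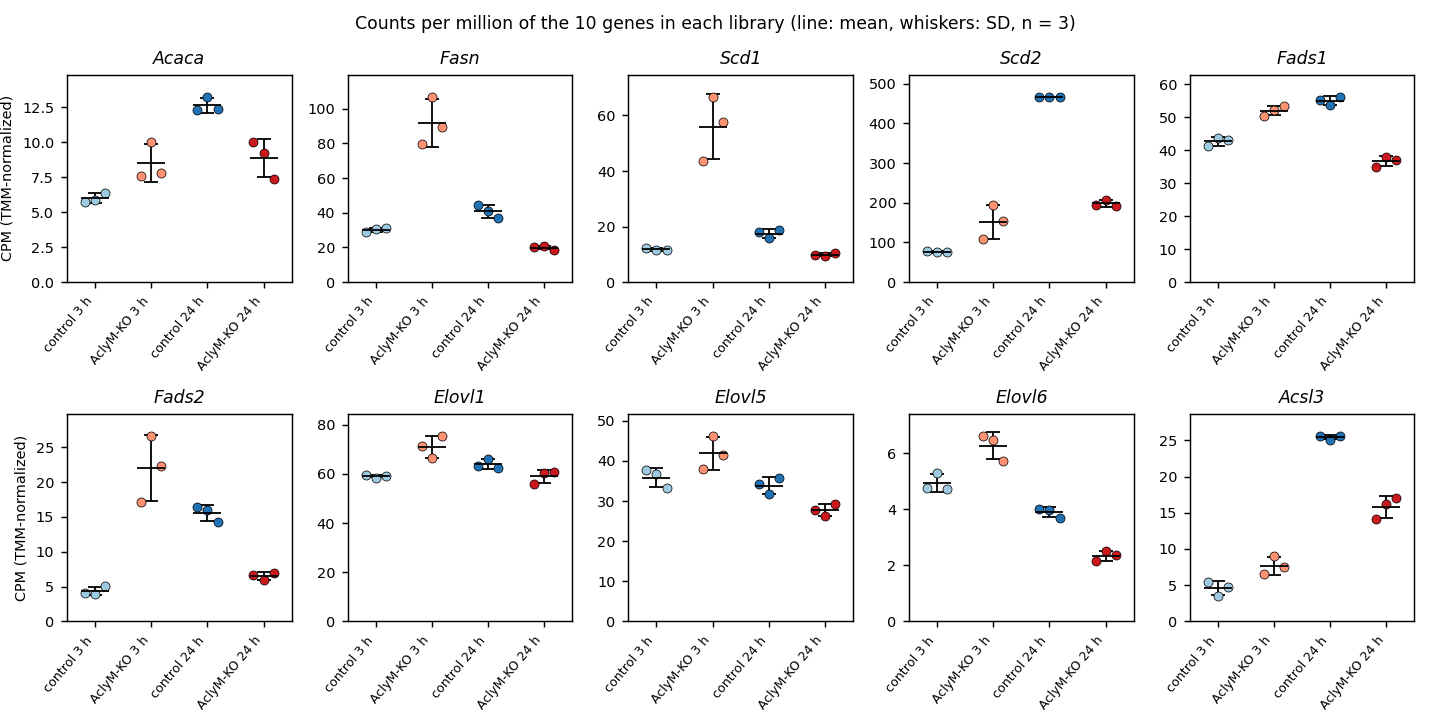
CPM of each of the 10 genes (y axes, linear from 0) in each library of the 4 groups (x axes), where points are libraries, the line is the mean and the whiskers the SD over 3 libraries. In every panel the AclyM-KO points lie above the control points after 3 h and below them after 24 h LPS.

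*Fasn*, the multifunctional enzyme that makes palmitate, had 28.9, 30.7 and 31.2 CPM in the control libraries after 3 h LPS and 79.6, 107 and 89.5 CPM in the AclyM-KO libraries. The means were 30.2 ± 1.20 and 92.0 ± 13.9 CPM (SD, n = 3 each), a log2 fold change of 1.61 (SE 0.09, adjusted p = 2.09e-10), or 3.05-fold higher in AclyM-KO BMDMs. At 24 h, levels were 44.4, 40.7 and 37.0 CPM in control and 19.9, 20.8 and 18.8 CPM in AclyM-KO libraries. The 24 h levels of the 2 genotypes did not overlap, and AclyM-KO BMDMs were 2.04-fold lower, with a log2 fold change of -1.03 (SE 0.09, adjusted p = 1.99e-07). The log2 difference between both effects was -2.64 (SE 0.13, adjusted p = 2.63e-11).

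*Acaca*, whose product malonyl-CoA is the building block used by Fasn, had 5.71, 5.89 and 6.38 CPM in control and 7.58, 10.05 and 7.83 CPM in AclyM-KO libraries after 3 h LPS. Its log2 fold change of 0.51 (SE 0.13, adjusted p = 0.00708) passed the p-value threshold but not that on the fold change, and without AclyM-KO 3 h replicate 2 the adjusted p-value was 0.0642. At 24 h, *Acaca* had 12.3, 13.3 and 12.4 CPM in control and 9.98, 9.25 and 7.37 CPM in AclyM-KO libraries. The groups were again separate, with a log2 fold change of -0.51 (SE 0.11, adjusted p = 0.00141) that did not pass the fold threshold. The difference between its effects was -1.02 (SE 0.17, adjusted p = 1.48e-04). Of the pair that builds saturated chains, *Fasn* thus passed both thresholds at both times and *Acaca* at neither.

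*Scd1*, which encodes the stearoyl-CoA desaturase prominent in liver and adipose tissue, had 12.4, 11.7 and 11.4 CPM in control and 43.7, 66.8 and 57.6 CPM in AclyM-KO libraries after 3 h LPS. That was 4.75-fold higher in AclyM-KO BMDMs, with a log2 fold change of 2.25 (SE 0.13, adjusted p = 8.43e-09). *Scd1* had, at 24 h, 17.9, 15.8 and 18.7 CPM in control and 9.83, 9.33 and 10.4 CPM in AclyM-KO libraries. The lowest control library thus lay well above the highest AclyM-KO library, and the log2 fold change was -0.83 (SE 0.13, adjusted p = 4.63e-04). With the replicate number as a block it was -0.70 (adjusted p = 0.00434), which no longer passed the fold threshold. Control 24 h replicate 4 was alone in its block in that fit and so added nothing to the comparison.

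*Scd2*, the stearoyl-CoA desaturase known for its expression in brain, was the most abundant of the 10 genes in CPM in every group. After 3 h LPS it had 79.4, 75.3 and 75.1 CPM in control and 109, 194 and 153 CPM in AclyM-KO libraries. The AclyM-KO libraries were widely spread but all above control, with a log2 fold change of 0.99 (SE 0.17, adjusted p = 0.00567). With the model fitted to the libraries at 3 h alone the fold change was 0.99 and the adjusted p-value 0.0614, so the call was lost. The 24 h levels were 467, 466 and 467 CPM in control against 195.5, 208 and 192 CPM in AclyM-KO libraries, which was 2.35-fold lower in AclyM-KO BMDMs (log2 fold change -1.24, SE 0.17, adjusted p = 0.00131). The differences between the genotype effects were -3.08 for *Scd1* (SE 0.18, adjusted p = 2.05e-08) and -2.23 for *Scd2* (SE 0.24, adjusted p = 6.65e-04).

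The ratio of *Scd2* to *Scd1*, each as CPM per kb of transcript, was 5.75 ± 0.07 in control and 2.38 ± 0.18 in AclyM-KO libraries after 3 h LPS (SD, n = 3 each). After 24 h it was 23.8 ± 2.10 in control and 17.9 ± 1.75 in AclyM-KO libraries. *Scd2* was thus the more abundant of both desaturase transcripts in every library, and the ratio was lower in AclyM-KO than in control libraries at both times without overlap. The ratio is given as a description with no test.

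**Figure D2:**
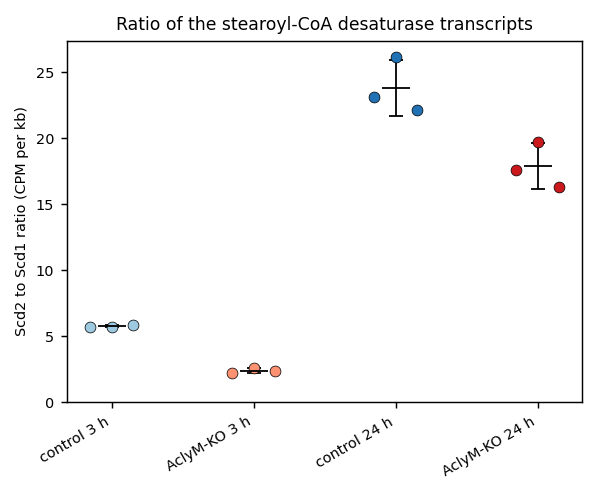
Ratio of *Scd2* to *Scd1* in CPM per kb of transcript (y axis, linear from 0) in each library of the 4 groups (x axis), where points are libraries, the line is the mean and the whiskers the SD over 3 libraries. The mean ratio lies at 5.75 and 2.38 after 3 h LPS and at 23.8 and 17.9 after 24 h LPS in control and AclyM-KO BMDMs.

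*Fads2*, the delta-6 desaturase at the entry of polyunsaturated fatty acid synthesis, had 4.07, 3.93 and 5.08 CPM in control and 17.1, 26.6 and 22.3 CPM in AclyM-KO libraries after 3 h LPS. This 5.07-fold difference was the largest of the 10 genes at that time (log2 fold change 2.34, SE 0.15, adjusted p = 6.83e-10). At 24 h *Fads2* had 16.4, 16.1 and 14.3 CPM in control and 6.68, 5.95 and 6.98 CPM in AclyM-KO libraries. The AclyM-KO level was 2.36-fold lower (log2 fold change -1.24, SE 0.13, adjusted p = 1.40e-06), and the difference between both effects was -3.58 (SE 0.20, adjusted p = 7.13e-11).

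*Fads1*, the delta-5 desaturase whose gene lies close to *Fads2*, had 41.3, 43.7 and 43.1 CPM in control and 50.5, 52.4 and 53.3 CPM in AclyM-KO libraries after 3 h LPS, without overlap. After 24 h it had 55.3, 53.7 and 56.3 CPM in control and 35.1, 38.1 and 37.1 CPM in AclyM-KO libraries. The log2 fold changes were 0.29 (SE 0.06, adjusted p = 0.00108) and -0.59 (SE 0.06, adjusted p = 2.07e-08), both within the fold threshold, and the difference between them was -0.87 (SE 0.08, adjusted p = 1.04e-08).

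None of the 3 elongases passed both thresholds at either time. *Elovl6*, which extends palmitate to stearate, had 4.76, 5.29 and 4.74 CPM in control and 6.61, 6.47 and 5.72 CPM in AclyM-KO libraries after 3 h LPS (log2 fold change 0.34, SE 0.13, adjusted p = 0.0834). At 24 h it had 4.02, 3.96 and 3.68 CPM in control and 2.14, 2.49 and 2.38 CPM in AclyM-KO libraries. This log2 fold change of -0.72 (SE 0.15, adjusted p = 8.03e-04) stood just inside the fold threshold. It passed at -0.77 without control 24 h replicate 4 or without AclyM-KO 24 h replicate 2. With the replicate number as a block, where that control library was alone in its block, it passed at -0.76. *Elovl5*, an elongase of polyunsaturated chains, had means of 35.8 ± 2.41 and 41.9 ± 4.09 CPM in control and AclyM-KO BMDMs after 3 h and of 33.9 ± 2.06 and 27.7 ± 1.51 CPM after 24 h LPS (SD, n = 3 each). Its log2 fold changes were 0.23 (SE 0.07, adjusted p = 0.0368) and -0.29 (SE 0.07, adjusted p = 0.00639). The adjusted p-value of *Elovl5* was over the threshold in 6 of 13 alternatives after 3 h (0.0647 to 0.189) and in 3 of 13 after 24 h LPS (0.0518 to 0.104). *Elovl1*, which elongates saturated and monounsaturated very long chains, had 59.1 ± 0.50 and 71.1 ± 4.53 CPM after 3 h and 64.0 ± 2.00 and 59.0 ± 2.59 CPM after 24 h LPS (SD, n = 3 each). Its log2 fold change was 0.27 after 3 h (SE 0.06, adjusted p = 0.00192) and -0.11 after 24 h (SE 0.06, adjusted p = 0.197), the smallest of the 10 genes at 24 h. The difference between the genotype effects was -1.07 for *Elovl6* (SE 0.20, adjusted p = 5.79e-04), -0.52 for *Elovl5* (SE 0.11, adjusted p = 0.00139) and -0.38 for *Elovl1* (SE 0.08, adjusted p = 0.00245).

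*Acsl3*, the acyl-CoA synthetase found at the endoplasmic reticulum and lipid droplets, had 5.41, 3.51 and 4.74 CPM in control and 6.50, 9.05 and 7.45 CPM in AclyM-KO libraries after 3 h LPS. The log2 fold change of 0.76 (SE 0.14, adjusted p = 3.27e-04) lay at the edge of the fold threshold. It fell short at 0.61 without control 3 h replicate 2 and at 0.63 without AclyM-KO 3 h replicate 2. *Acsl3* had, at 24 h, 25.6, 25.1 and 25.6 CPM in control and 14.2, 16.2 and 17.1 CPM in AclyM-KO libraries. The groups were far apart, with a log2 fold change of -0.69 (SE 0.10, adjusted p = 8.33e-06) that did not reach the fold threshold, although it did at -0.75 without AclyM-KO 24 h replicate 3. The difference between both effects was -1.45 (SE 0.17, adjusted p = 9.57e-07).

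**Figure D3:**
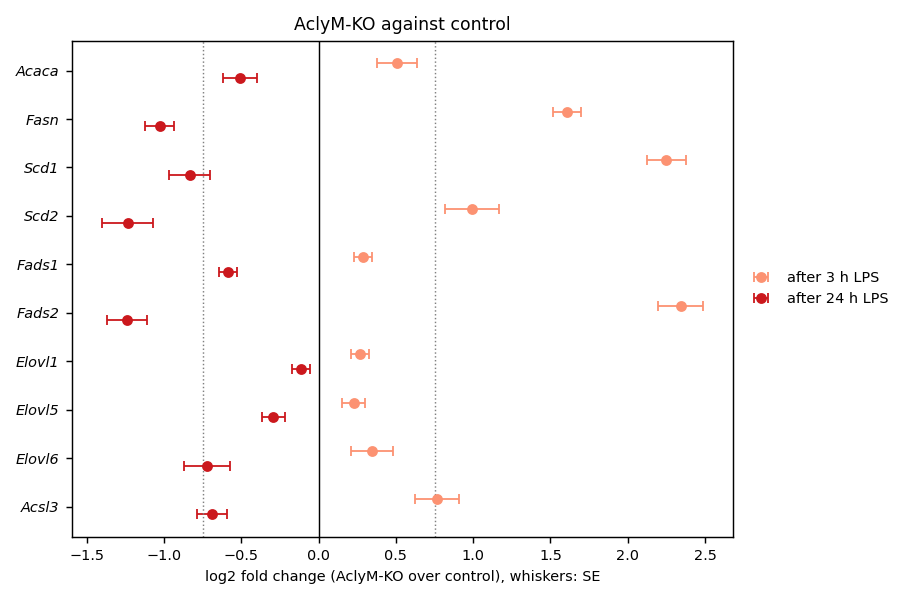
Log2 fold change of AclyM-KO over control (x axis) for each of the 10 genes (y axis) after 3 h LPS (light points) and 24 h LPS (dark points), where whiskers are the SE and dotted lines mark the fold threshold of 0.75. All 3 h points lie above 0, up to 2.34 for *Fads2*, and all 24 h points below 0, down to -1.24 for *Fads2* and *Scd2*.

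The AclyM-KO libraries after 3 h LPS varied together. Replicate 2 held the highest level for 7 of the 10 genes and replicate 1 the lowest for 8 of 10. The level of *Acly* itself had the order of replicate 1, replicate 3 and replicate 2 from low to high (37.7, 41.5 and 46.2 CPM), which is also the order of those 7 genes (*Acaca*, *Fasn*, *Scd1*, *Scd2*, *Fads2*, *Elovl5* and *Acsl3*). The part of this variation in the results was not tested. Without AclyM-KO 3 h replicate 2 the same 10 genes passed the interaction test and *Acsl3* alone lost its call on both thresholds after 3 h LPS.

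Between 3 h and 24 h LPS, the control and AclyM-KO BMDMs followed separate courses. In control, *Acaca*, *Scd2*, *Fads2* and *Acsl3* rose, which is 4 of 10 where 20.9% of all genes tested were called higher. The log2 fold changes of 24 h over 3 h in control were 2.61 for *Scd2* (SE 0.18, adjusted p = 7.10e-07), 2.49 for *Acsl3* (SE 0.12, adjusted p = 2.22e-17), 1.83 for *Fads2* (SE 0.15, adjusted p = 2.77e-10) and 1.07 for *Acaca* (SE 0.12, adjusted p = 2.08e-09). *Scd2* and *Acsl3* thus reached 6.10-fold and 5.61-fold their 3 h level. By the adjusted p-value alone 7 of 10 were higher and 1 lower in control, where 4630 and 4291 of 11904 genes tested were. Those within the fold threshold were *Scd1* at 0.57 (SE 0.13, adjusted p = 0.00108), *Fasn* at 0.42 (SE 0.09, adjusted p = 3.37e-04), *Fads1* at 0.37 (SE 0.06, adjusted p = 1.42e-06) and *Elovl6* at -0.36 (SE 0.14, adjusted p = 0.0187). *Elovl6* lost this p-value in 4 of 13 alternatives, with adjusted p-values of 0.0616 to 0.0929, the replicate block among them.

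In AclyM-KO BMDMs, *Acsl3* alone rose, by 1.03 on the log2 scale (SE 0.11, adjusted p = 2.93e-09), and *Scd1*, *Fasn*, *Fads2* and *Elovl6* fell. That is 5 of 10, where 41.9% of all genes tested were called in either direction. The log2 fold changes of those that fell were -2.51 for *Scd1* (SE 0.13, adjusted p = 1.57e-11), -2.22 for *Fasn* (SE 0.09, adjusted p = 6.09e-15), -1.76 for *Fads2* (SE 0.13, adjusted p = 8.27e-11) and -1.42 for *Elovl6* (SE 0.15, adjusted p = 3.18e-10). *Scd2* stood at 0.38 (SE 0.17, adjusted p = 0.0643) and *Acaca* at 0.06 (SE 0.12, adjusted p = 0.677). The adjusted p-value of *Scd2* was under the threshold in 3 of 13 alternatives (0.00115 to 0.046), and *Acaca* took either sign as single libraries were left out, from -0.04 to 0.18. The median over the 10 genes was 0.50 in control and -0.55 in AclyM-KO BMDMs, with 0.043 and 0.044 for all genes. These comparisons share their libraries with the genotype comparisons and are not further evidence for them.

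**Figure D4:**
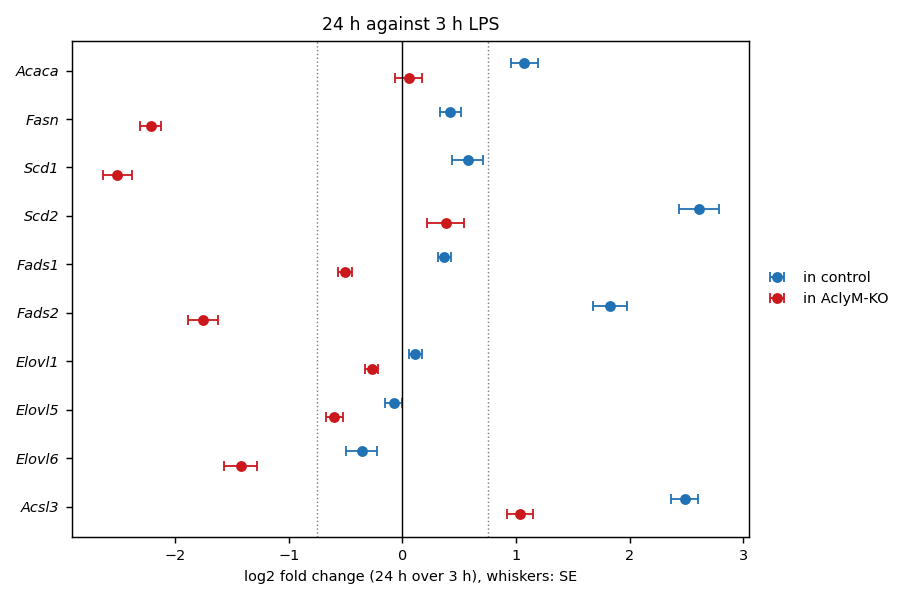
Log2 fold change of 24 h over 3 h LPS (x axis) for each of the 10 genes (y axis) in control (blue) and AclyM-KO BMDMs (red), where whiskers are the SE and dotted lines mark the fold threshold of 0.75. For every gene the AclyM-KO point lies left of the control point, with *Scd1* at -2.51 against 0.57 and *Fads2* at -1.76 against 1.83.

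Per kb of transcript, *Elovl1* had the highest level in control BMDMs after 3 h LPS with 47.3 CPM per kb, or 49.1% of the sum over the 10 genes, followed by *Scd2* at 14.03, *Elovl5* at 12.9 and *Fads1* at 12.3 CPM per kb. The libraries of *Elovl5* and *Fads1* overlapped. *Fasn* (3.01), *Scd1* (2.44), *Acsl3* (1.53), *Fads2* (1.38), *Elovl6* (0.83) and *Acaca* (0.66 CPM per kb) followed, and *Acsl3* and *Fads2* overlapped. In AclyM-KO BMDMs after 3 h LPS, *Elovl1* (57.0 CPM per kb) and *Scd2* (27.9) again led, and *Scd1* (11.6), *Fasn* (9.15) and *Fads2* (6.99 CPM per kb) stood between *Fads1* and *Acsl3* with overlap between neighbours. *Elovl6* and *Acaca*, at 1.05 and 0.94 CPM per kb, were last and overlapped.

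In control BMDMs after 24 h LPS, *Scd2* led with 85.6 CPM per kb, or 45.5% of the sum, ahead of *Elovl1* at 51.2, *Fads1* at 15.9, *Elovl5* at 12.2 and *Acsl3* at 8.55 CPM per kb. *Fads2* (4.95), *Fasn* (4.05), *Scd1* (3.61), *Acaca* (1.40) and *Elovl6* (0.65 CPM per kb) followed, and *Fasn* and *Scd1* were the only neighbours that overlapped. In AclyM-KO BMDMs at that time *Elovl1* was first with 47.3 and *Scd2* second with 36.4 CPM per kb. *Fads1* (10.6) and *Elovl5* (9.96) overlapped, as did *Fads2* (2.08) with *Scd1* (2.04) and *Scd1* with *Fasn* (1.97 CPM per kb). The order of genes thus differed between genotypes after 24 h LPS in the leading place, and *Elovl6* had the lowest level of the 10 genes in both genotypes at that time.

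Other genes of fatty acid metabolism were set beside the 10 enzymes, from a list of 33 that holds further synthetases, elongases, desaturases, mitochondrial synthesis enzymes and partners, of which 26 were tested. After 3 h LPS, 1 of 26 passed both thresholds, where 2.01% of all genes tested did in either direction, and 7 of 26 were higher by the adjusted p-value alone, where 8.50% of all genes were. This was *Acss2*, the synthetase that makes acetyl-CoA from acetate, at 2.39 ± 0.52 CPM in control and 6.95 ± 0.91 CPM in AclyM-KO BMDMs (SD, n = 3 each; log2 fold change 1.55, SE 0.15, adjusted p = 7.06e-09). After 24 h LPS *Acss2* had 30.4 and 30.6 CPM, a log2 fold change of 0.01 (SE 0.08, adjusted p = 0.951). Also after 24 h, 1 of 26 passed, where 1.38% of all genes did in either direction, and 4 of 26 were lower by the adjusted p-value alone, where 5.57% of all genes were. This was *Mid1ip1*, which encodes a protein that promotes the polymerisation of acetyl-CoA carboxylase, at 41.1 CPM in control and 22.7 CPM in AclyM-KO BMDMs (log2 fold change -0.85, SE 0.09, adjusted p = 1.42e-07). The medians of the 26 genes were 0.07 after 3 h and -0.10 after 24 h LPS, and 6 of 26 passed the interaction test, all lower after 24 h, where 4.66% of all genes did so.

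Of 10 regulators of these genes, 9 were tested. *Insig1*, which retains the precursors of the sterol regulatory element-binding proteins in the endoplasmic reticulum, was higher after 3 h LPS, at 122 CPM in AclyM-KO against 71.1 CPM in control BMDMs (log2 fold change 0.78, SE 0.06, adjusted p = 4.92e-11). It was 1 of 9 called higher there, where 1.41% of all genes were. By the adjusted p-value alone 3 of 9 were higher after 3 h, where 8.50% of all genes were, and 1 was lower, where 823 of 11904 genes were. The lower gene was *Nr1h3*, which encodes a liver X receptor and is named after its values were seen. Its log2 fold change was -0.34 after 3 h (SE 0.09, adjusted p = 0.00969) and -0.60 after 24 h LPS (SE 0.08, adjusted p = 1.18e-06). At 24 h *Insig1* had 46.4 CPM in control and 28.7 CPM in AclyM-KO BMDMs (log2 fold change -0.70, SE 0.06, adjusted p = 1.69e-09), a size within the fold threshold. By the adjusted p-value alone 4 of 9 regulators were lower at that time, where 5.57% of all genes were, and 1 was higher, where 990 of 11904 genes were. The interaction test was passed by 3 of 9, all lower after 24 h, where 4.66% of all genes did so. They were *Insig1* at -1.47 (SE 0.08, adjusted p = 1.43e-13), *Srebf1* at -0.91 (SE 0.10, adjusted p = 2.15e-07) and *Srebf2* at -0.78 (SE 0.09, adjusted p = 3.10e-07), and the latter pair was named after its values were seen.

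**Figure D5:**
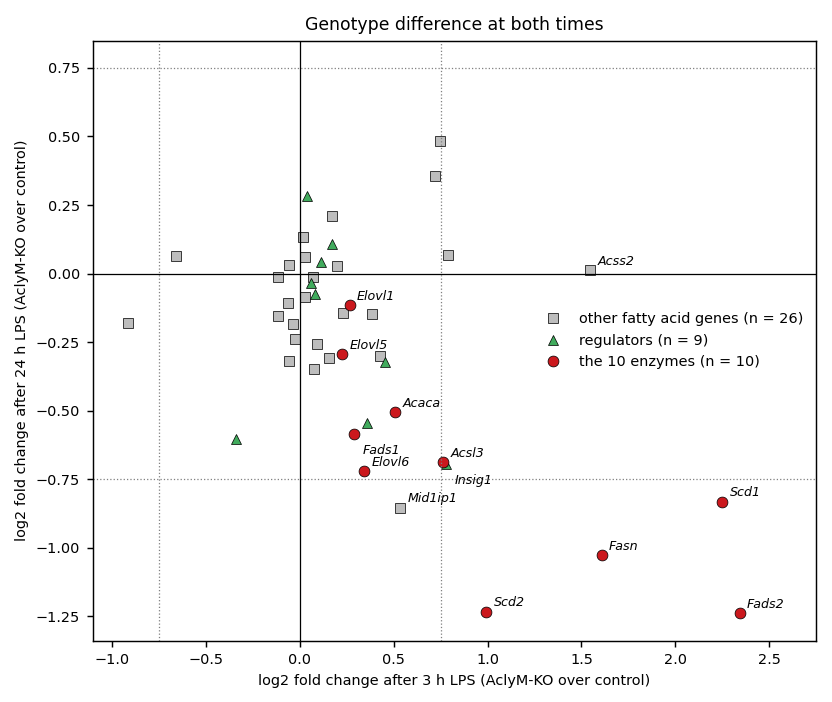
Log2 fold change of AclyM-KO over control after 3 h LPS (x axis) and after 24 h LPS (y axis) of the 10 enzymes (circles), 26 other fatty acid genes (squares) and 9 regulators (triangles), where dotted lines mark the fold threshold of 0.75. The 10 enzymes lie in the lower right quadrant, and *Acss2* lies at 1.55 after 3 h and 0.01 after 24 h LPS.

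The genes whose pattern was most like that of the 10 enzymes were found by the root-mean-square difference over the 4 groups between group means of log2(CPM + 0.5), centred on each gene. The mean profile of the 10 enzymes was -0.49 in control and 0.42 in AclyM-KO BMDMs after 3 h, and 0.39 and -0.32 after 24 h LPS. The nearest of the other genes tested were *Nsdhl* at a difference of 0.09, *Pmvk* at 0.11, *Mid1ip1* at 0.15, *Dhcr7* at 0.16 and *Mvk* at 0.16 on the log2 scale. The 10 enzymes themselves lay at 0.24 (*Fads1*) to 0.81 (*Acsl3*) from their own mean profile. The 5 genes were nearer to it, but they were picked as the nearest of all genes tested, and the enzymes were not picked by closeness.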

How the data were processed

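RNA-seq was measured in 13 libraries of LPS-stimulated BMDMs. Per the submitters' processing notes, the tools were CASAVA 1.8.2 and STAR 2.5.2b on mm10, and per the methods of the study the authors made raw tag counts with HOMER. The deposited table gives whole-number counts, not normalized, for 35745 transcripts named by RefSeq identifiers per the file header. The strand and isoform settings of the counting are not given in the sources used here. Groups and replicate numbers came from the labels. Symbols were matched for 35440 transcripts by a RefSeq gene table and 35628 with GENCODE added. The other 117 hold 1.13% of counts and stayed in the fit.

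Counts were TMM-normalized, filtered with filterByExpr (19621 transcripts of 11904 genes) and fitted with edgeR 4.0.16 (robust quasi-likelihood) in R 4.3.3, on 12 libraries and 4 groups without a replicate block. P-values were adjusted over all transcripts tested. The procedure was tested on simulated data. Replicates differed by more than sampling noise (chi-square per degree of freedom 2.42 to 11.3). Same-numbered libraries deviated together weakly at most (r of -0.04 to 0.09 over 15 pairs, within and across genotypes), and numbers were not taken as pairs. Over time within AclyM-KO, same-numbered libraries had r of 0.06, 0.04 and 0.06, and differently numbered ones -0.04 to -0.01. Within control, same-numbered libraries had 0.004 and 0.05, and differently numbered ones -0.09 to 0.09. The highest of these was control 3 h replicate 1 with control 24 h replicate 4 (r = 0.086). By the numbers in their column names, these libraries are each the first of their group. Whether they were matched is not stated. Pairing over time was thus not excluded.

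All 10 enzymes and *Acly* are named, as are other listed genes past both thresholds, the 5 genes nearest in pattern and same-strand neighbours. Genes on the opposite strand were named besides. The enzymes and lists were chosen with earlier results of these data known. Alternatives were DESeq2 1.42.0, other scaling, filters and groupings, all 13 libraries, a replicate block and leaving out each library.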

Additional observations from a re-analysis of the deposited data

Results flagged for a closer look

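The effect of genotype differed between the time points for each of the 10 enzymes in edgeR's interaction test. On the log2 scale, the effect after 24 h minus that after 3 h LPS was -1.02 for *Acaca*, -2.64 for *Fasn*, -3.08 for *Scd1*, -2.23 for *Scd2*, -0.87 for *Fads1*, -3.58 for *Fads2*, -0.38 for *Elovl1*, -0.52 for *Elovl5*, -1.07 for *Elovl6* and -1.45 for *Acsl3*.

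Control 24 h replicate 1, the library of 34467 counts, stood apart from the other 3 control libraries for all 10 enzymes and for *Acly* by Dixon's test on the 4 control libraries (11 groups of values tested, of which chance flags about 1 in 20). One count in it was worth 22.4 CPM. Its values were 0 CPM for *Acaca* and *Elovl6*, 22.4 for *Fads1* and *Acly*, 44.8 for *Scd1* and *Fads2*, 67.2 for *Acsl3*, 89.6 for *Elovl1*, 112 for *Fasn* and *Elovl5* and 156.8 CPM for *Scd2*, which rest on 0 to 7 counts each.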

How the results depend on the processing

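Of 700 values of the 10 enzymes under 19 alternatives, 689 kept their direction and their call on both thresholds jointly, 4 lost a call, 4 gained one and 3 changed sign. The adjusted p-value by itself crossed its threshold in 18 of the 700, being lost in 15 (*Elovl5* at both times, *Elovl6* over time in control, and *Acaca* and *Scd2* after 3 h) and gained in 3 (*Scd2* over time in AclyM-KO BMDMs). With all 13 libraries the same enzymes were called in each comparison. By the adjusted p-value alone, with no fold threshold, 9 enzymes were called after 3 h, 9 after 24 h, 8 over time in control and 8 over time in AclyM-KO BMDMs, and 7 and 4 of the other fatty acid genes after 3 h and 24 h LPS. Of 11904 genes tested, 1835 were called after 3 h, 1653 after 24 h, 8921 over time in control and 9009 over time in AclyM-KO BMDMs. With DESeq2, or with no filter on low counts, 2 of the other fatty acid genes were called after 3 h LPS, *Me1* being added to *Acss2*. With single libraries left out this count was 1 to 2, *Fads3* being added without control 3 h replicate 2 and *Me1* without control 3 h replicate 3 or AclyM-KO 3 h replicate 1, both genes named here after their values were seen. *Acaca* over time in AclyM-KO BMDMs changed sign among the fits with 1 library left out (-0.038 to 0.18), while none passed the threshold. The cause of these changes was not tested, other than that the fold threshold itself sets the first.

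The replicate block left the interaction count at 10 and the counts at 3 h and 24 h at 5 and 4. In that fit *Scd1* fell short after 24 h LPS (-0.70) and *Elovl6* passed (-0.76). Control 24 h replicate 4 was alone in its block there and so added nothing to the comparisons. The effect of blocking and that of losing this library cannot be told apart. The values are limited by 3 libraries per group, by unknown independence of the replicates, and for *Acaca*, *Elovl6*, *Fads2* and *Acsl3* by levels of a few CPM in some groups.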
